A study of Mus musculus with 16 samples.

Results

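The tumour suppressor p53 and its direct partners were followed in mouse haematopoietic stem cells (HSC) and pluripotent cells through 10 gene symbols: Trp53, Mdm2, Mdm4, Ccng1, Bax, Bbc3, Phlda3, Sesn2, Zmat3 and Trp53inp1. Every probe set that carries exactly 1 of these symbols was taken, whatever its level. This gave 17 of the 45101 probe sets on the array, for 8 of the 10 genes and of 18193 named genes in all: 4 for Mdm4, 3 each for Mdm2 and Ccng1, 2 each for Sesn2 and Trp53inp1, and 1 each for Bbc3, Phlda3 and Zmat3. Trp53 and Bax were not analysed here. Each gene was led by its probe set with the highest mean over all arrays.

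The p53 protein is a transcription factor that is held at a low level by Mdm2, a ubiquitin ligase that marks it for degradation, and by Mdm4, a relative of Mdm2 that blocks its activity. DNA damage and other stresses release p53, which then switches on genes that halt the cell cycle, repair damage, damp growth signals or start cell death, and Mdm2 itself, which closes a feedback loop. In HSC the pathway is known for its part in quiescence and in the response to radiation, and in reprogramming it is known as a barrier to the formation of induced pluripotent cells.

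The study measured RNA on 16 single-channel Affymetrix arrays in 7 groups. The HSC were sorted from bone marrow of steady-state mice or from recipients that had been transplanted with bone marrow, and the pluripotent cells were cultured and sorted. The groups were aged-origin iPSC (induced pluripotent stem cells of aged haematopoietic origin, 2 arrays), young-origin iPSC (2 arrays), ESC (embryonic stem cells, 2 arrays, 1 from Open Biosystems and 1 from Primogenix), HSC from recipients of aged marrow (2 arrays), HSC from recipients of young marrow (2 arrays), aged steady-state HSC from male mice of 21 to 24 months (3 arrays) and young steady-state HSC from male mice of 3 to 4 months (3 arrays). All 7 groups are labelled wild type on the C57Bl6 background. The labels give no age for the transplanted, iPSC and ESC arrays, and they do not state the sex or conditioning of the transplant recipients, or how the iPSC were reprogrammed and whether each line is 1 clone. The iPSC and ESC were grown on feeder layers of mouse embryonic fibroblasts (MEF).

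Marker genes were summed for each array on the deposited intensity scale. The 10 pluripotency genes summed to between 22368 and 24545 in the iPSC and ESC, against 179 to 424 in the HSC, where Nanog, Sox2, Zfp42, Tdgf1 and Fgf4 lay below the 25th percentile of the array. HSC identity genes (11 measured) summed to between 7669 and 9695 in transplanted HSC, against 29710 to 34999 in steady-state HSC, and to between 714 and 845 in the pluripotent cells, where Hoxa9 and Meis1 lay below the 25th percentile. Replicates correlated across probe sets at 0.9924 to 0.9934 in the pluripotent pairs, at 0.9661 and 0.9451 in the aged and young transplanted pairs and at 0.9812 to 0.991 in steady-state HSC. Array medians ran from 43.4 to 51.8 intensity units.

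The genes lie at these places in GRCm38.p6, the build of the RefSeq table used: Mdm2 at chr10:117688875-117710758, Mdm4 at chr1:132986105-133030587, Ccng1 at chr11:40748552-40755309, Sesn2 at chr4:132492804-132510456, Zmat3 at chr3:32334792-32365665, Bbc3 at chr7:16308398-16318334, Phlda3 at chr1:135766085-135769134 and Trp53inp1 at chr4:11156441-11174379. The 250 bases before each annotated start were searched for the p53 half-site, a palindromic motif that reads the same on both strands and was matched with no mismatch. RefSeq promoter entries existed for 6 of the 8 genes, all but Zmat3 and Trp53inp1, and held 9 windows. The motif occurred in 2 of the 9, those of Ccng1 and Mdm2, and in 2341 of 32851 windows of all genes (7.13%). The Ccng1 and Mdm2 windows are printed because they held the motif. Those of Bbc3, Mdm4, Phlda3 and Sesn2 held 0 matches and are not printed. Whether the Mdm2 match takes part in the induction of Mdm2 by p53 was not tested. A window of Cdkn1a, a widely studied p53 target, is printed for comparison. Capitals mark the half-sites. The Ccng1 window is chr11:40755287-40755536 on the minus strand, with its half-site starting 185 bases upstream of the start. That of Mdm2 is chr10:117710759-117711008 on the minus strand, with a half-site starting 186 bases upstream. The printed Cdkn1a window is chr17:29090729-29090978 on the plus strand, with half-sites starting 73 and 51 bases upstream. Another Cdkn1a window, chr17:29093519-29093768 on the plus strand, held 0 half-sites and is not printed. A match is a description of letters, not a bound site, and no match says only that these letters are not in the window.
Ccng1: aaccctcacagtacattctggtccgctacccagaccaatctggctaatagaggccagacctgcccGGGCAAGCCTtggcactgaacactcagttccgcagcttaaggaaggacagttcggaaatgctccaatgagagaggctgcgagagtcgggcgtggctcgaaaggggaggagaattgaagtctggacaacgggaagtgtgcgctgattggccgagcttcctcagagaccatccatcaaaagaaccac
Mdm2: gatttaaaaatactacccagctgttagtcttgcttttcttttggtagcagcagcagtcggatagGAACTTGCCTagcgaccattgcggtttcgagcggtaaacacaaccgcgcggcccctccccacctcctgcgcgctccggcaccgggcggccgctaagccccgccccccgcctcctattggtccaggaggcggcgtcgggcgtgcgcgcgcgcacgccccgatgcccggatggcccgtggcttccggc
Cdkn1a: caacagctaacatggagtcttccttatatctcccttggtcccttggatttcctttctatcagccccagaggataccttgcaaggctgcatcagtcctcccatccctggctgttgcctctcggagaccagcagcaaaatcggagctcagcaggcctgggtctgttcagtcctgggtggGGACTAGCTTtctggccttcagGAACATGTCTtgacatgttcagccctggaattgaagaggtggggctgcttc

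More of the pathway probe sets differed between cell types or settings than between ages, as did more of all probe sets. Of all probe sets tested, 54.9% to 67.4% were called for iPSC, ESC or transplanted HSC against steady-state HSC. For age in steady-state HSC, transplanted HSC or iPSC, 0.0118% to 0.779% were called. Of the 17 probe sets, 13 were higher and 1 was lower in iPSC than in steady-state HSC at a Benjamini-Hochberg adjusted p under 0.05 from limma. Among all 33778 probe sets tested, 67.4% were called in this comparison, 37.2% higher and 30.2% lower. The median difference was 1.18 log2 over the 17 and 0.16 over all probe sets. In ESC against the same steady-state HSC, 13 were higher and 1 was lower, where 54.9% of all probe sets were called, 29% higher and 25.9% lower. By lead probe set, 5 of the 8 genes were higher and 1 lower in iPSC, against 41.2% and 31.9% over the lead probe sets of named genes. In ESC, 5 of the 8 were higher and 1 lower, against 32.4% and 28.5%. Both comparisons share the 6 steady-state arrays. All 6 pluripotent arrays lay above all 6 steady-state arrays in 12 of the 17 probe sets, against 27% of all 45037 non-control probe sets. In these bulk samples, fewer cells of a type and less RNA per cell cannot be told apart.

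**Figure D1:**
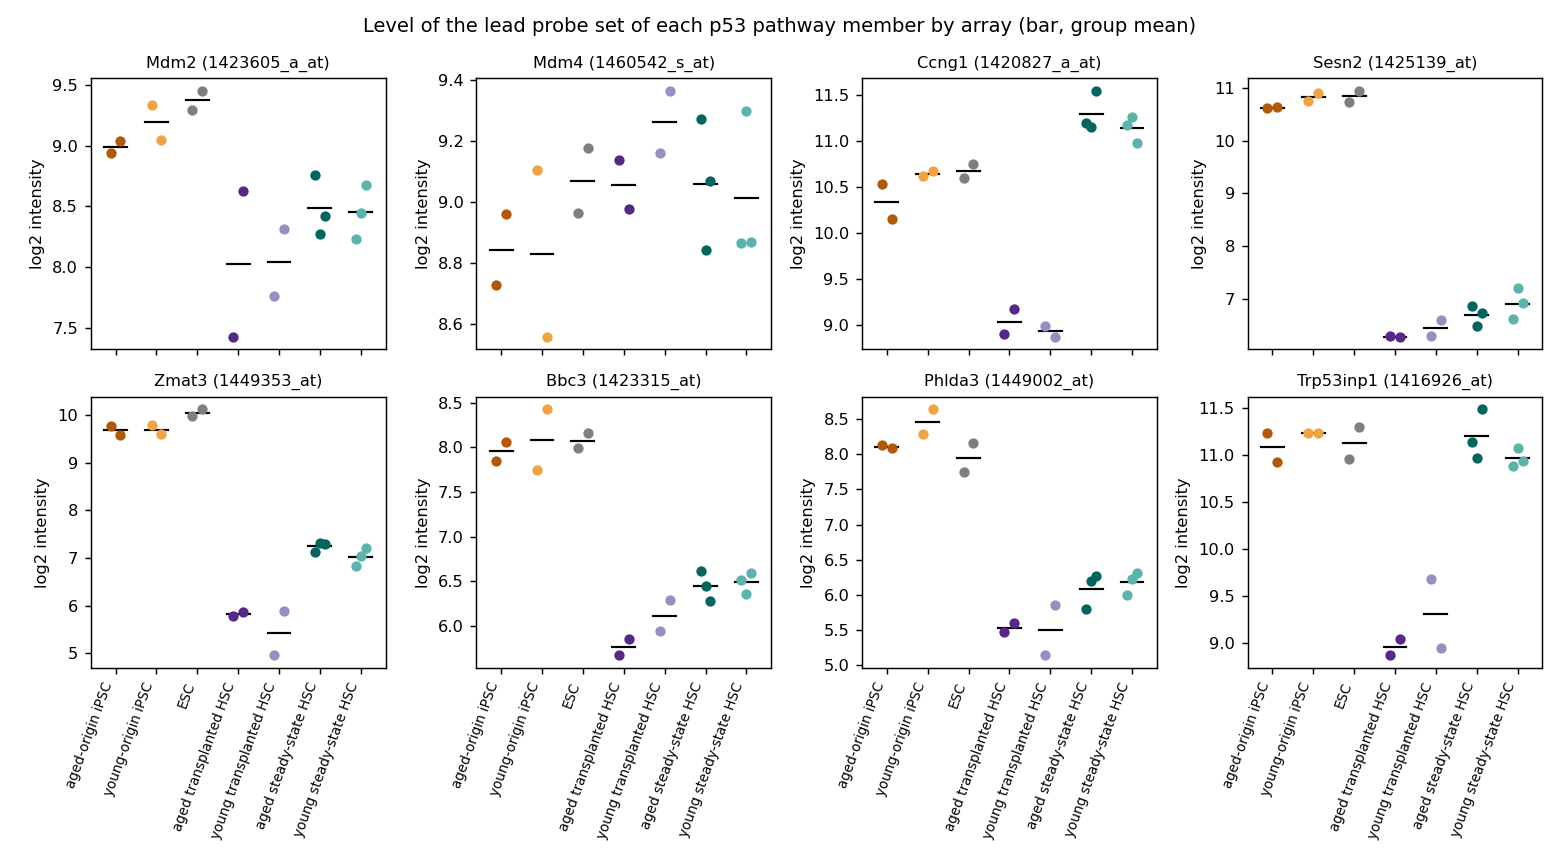
Level of the lead probe set of the 8 measured genes on each array, as log2 of the deposited intensity, by group. Points are arrays and black bars group means. The pluripotent arrays lie highest for Sesn2, Zmat3, Bbc3 and Phlda3, the transplanted HSC lie lowest for Ccng1 and Trp53inp1, and the groups overlap for Mdm4.

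Among the brakes, Mdm2 was higher in the pluripotent cells at each of its probe sets, although 1457929_at lay near the floor. Its lead probe set, 1423605_a_at, read 8.94 and 9.04 log2 in aged-origin iPSC, 9.33 and 9.05 in young-origin iPSC and 9.29 and 9.45 in ESC, against 8.76, 8.28 and 8.42 in aged and 8.23, 8.44 and 8.67 in young steady-state HSC. All pluripotent arrays lay above all steady-state arrays. The difference was 0.62 ± 0.21 (SE; 1.54-fold, limma adjusted p = 0.0181) for iPSC and 0.91 ± 0.27 (1.87-fold, limma adjusted p = 0.0106) for ESC. Leaving out young-origin iPSC replicate 1 or aged-origin iPSC replicate 2 moved the iPSC adjusted p to 0.0706 or 0.0556, and leaving out the Primogenix ESC array moved the ESC adjusted p to 0.0925. A second Mdm2 probe set, 1427718_a_at, was 2.12 ± 0.21 log2 higher in iPSC and 1.89 ± 0.26 higher in ESC. The third, 1457929_at, was 0.67 ± 0.20 higher in iPSC and 0.79 ± 0.25 higher in ESC at levels of 3.19 to 4.37 log2, with group means below the 25th percentile in the iPSC and steady-state HSC and just above it in ESC. With 64 added before the log2, these last differences were 0.12 and 0.15 and were not called (limma adjusted p = 0.431 and 0.482). Under quantile normalisation they were not called either (limma adjusted p = 0.0502 and 0.0548). Probe set 1457929_at passed the filter of the all-array fit through the transplanted arrays, where it read 7.17 to 8.28.

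Mdm4, the partner brake, split by probe set. Its lead, 1460542_s_at, read 8.73 and 8.96 log2 in aged-origin iPSC, 9.10 and 8.56 in young-origin iPSC and 8.96 and 9.18 in ESC, against 9.27, 8.84 and 9.07 in aged and 8.87, 9.30 and 8.87 in young steady-state HSC. These ranges overlap in every group. The lead probe set differed by -0.20 ± 0.15 in iPSC (95% interval -0.52 to 0.12) and by 0.03 ± 0.19 in ESC (-0.37 to 0.44), neither called. The other Mdm4 probe sets were higher in iPSC: 1419558_at by 1.18 ± 0.12, 1458223_at by 1.11 ± 0.15 and 1453982_at by 0.71 ± 0.13 log2. In ESC they were higher by 1.09 ± 0.15, 0.84 ± 0.19 and 0.42 ± 0.17, the last with a limma adjusted p of 0.0467. Quantile normalisation moved this adjusted p to 0.112, centring on the array median to 0.0816 and adding 64 to 0.0849. Leaving out any steady-state array but aged replicate 2 moved it to between 0.0605 and 0.0856. Without the Open Biosystems array the difference was 0.25.

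Sesn2 showed the widest gap of the 17 probe sets. It encodes sestrin 2, a stress protein that senses leucine and holds back the growth kinase mTORC1. Its lead probe set, 1425139_at, read 10.62 and 10.64 log2 in aged-origin iPSC, 10.75 and 10.91 in young-origin iPSC and 10.74 and 10.95 in ESC, against 6.86, 6.48 and 6.73 in aged and 6.61, 7.20 and 6.91 in young steady-state HSC. The pluripotent and HSC arrays did not overlap. It was 3.93 ± 0.14 log2 higher in iPSC (15.3-fold, limma adjusted p = 1.58e-11) and 4.04 ± 0.17 higher in ESC (16.5-fold, limma adjusted p = 2.62e-10). The other Sesn2 probe set, 1451599_at, was 1.44 ± 0.14 higher in iPSC and 1.40 ± 0.18 higher in ESC.

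Zmat3, a zinc finger protein that binds RNA and acts on splicing and RNA stability, was also higher. Its probe set, 1449353_at, read 9.77 and 9.59 log2 in aged-origin iPSC, 9.79 and 9.59 in young-origin iPSC and 9.97 and 10.12 in ESC, against 7.12, 7.32 and 7.30 in aged and 6.83, 7.04 and 7.22 in young steady-state HSC. The groups did not overlap. It was 2.55 ± 0.16 higher in iPSC (5.84-fold, limma adjusted p = 8.43e-09) and 2.91 ± 0.21 higher in ESC (7.49-fold, limma adjusted p = 4.43e-08).

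Ccng1, cyclin G1, acts with a phosphatase on Mdm2, and its probe sets moved apart. The lead, 1420827_a_at, read 10.53 and 10.15 log2 in aged-origin iPSC, 10.61 and 10.67 in young-origin iPSC and 10.60 and 10.75 in ESC, against 11.19, 11.15 and 11.54 in aged and 11.17, 11.26 and 10.97 in young steady-state HSC. All pluripotent arrays lay below all steady-state arrays, with a difference of -0.72 ± 0.13 in iPSC (1.65-fold lower, limma adjusted p = 0.000215) and -0.54 ± 0.16 in ESC (1.45-fold lower, limma adjusted p = 0.0123). Probe set 1450016_at read 9.95 to 10.33 in the 6 pluripotent arrays, against 6.50 to 7.56 in the 6 steady-state arrays, a difference of 3.11 ± 0.29 in iPSC and 3.22 ± 0.36 in ESC. The third, 1450017_at, differed by -0.39 ± 0.18 in iPSC (limma adjusted p = 0.0620) and -0.39 ± 0.22 in ESC (limma adjusted p = 0.155). Alternatives called it lower in iPSC. The limma adjusted p was 0.0385 with median centring, 0.0376 with 64 added, 0.0440 with array weights and 0.0419 with only the arrays compared. Without young steady-state replicate 3 it was 0.0142 in iPSC and 0.0490 in ESC. The direction for Ccng1 thus depended on the probe set, and of genes with several tested probe sets 17.9% in iPSC and 11.7% in ESC had probe sets called both ways. Without the Open Biosystems array the lead's ESC adjusted p was 0.122.

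Bbc3 and Phlda3, listed among the death genes, were higher. Bbc3 encodes PUMA, a protein that binds BCL2 relatives and triggers apoptosis. It read 7.85 and 8.06 log2 in aged-origin iPSC, 7.75 and 8.43 in young-origin iPSC and 7.99 and 8.16 in ESC, against 6.62, 6.45 and 6.29 in aged and 6.52, 6.35 and 6.59 in young steady-state HSC, with no overlap. The difference was 1.55 ± 0.15 in iPSC (2.94-fold, limma adjusted p = 5.36e-07) and 1.61 ± 0.19 in ESC (3.05-fold, limma adjusted p = 6.16e-06). Phlda3, a lipid-binding protein that keeps the survival kinase Akt from membranes, read 8.14 and 8.08 in aged-origin iPSC, 8.29 and 8.64 in young-origin iPSC and 7.75 and 8.16 in ESC, against 5.797, 6.20 and 6.27 in aged and 6.001, 6.23 and 6.31 in young steady-state HSC. It was 2.15 ± 0.16 higher in iPSC (4.45-fold, limma adjusted p = 5.59e-08) and 1.82 ± 0.21 higher in ESC (3.53-fold, limma adjusted p = 5.22e-06).

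Trp53inp1 encodes a nuclear stress protein that promotes p53 activity and cell death. Its lead probe set, 1416926_at, read 11.24 and 10.93 log2 in aged-origin iPSC, 11.24 and 11.24 in young-origin iPSC and 10.96 and 11.30 in ESC, against 11.14, 10.97 and 11.49 in aged and 10.89, 11.08 and 10.94 in young steady-state HSC. These overlap, and the difference was 0.08 ± 0.16 in iPSC (95% interval -0.27 to 0.42) and 0.04 ± 0.20 in ESC (-0.39 to 0.48). Its other probe set, 1416927_at, was 1.35 ± 0.17 log2 higher in iPSC and 1.46 ± 0.22 higher in ESC.

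**Figure D2:**
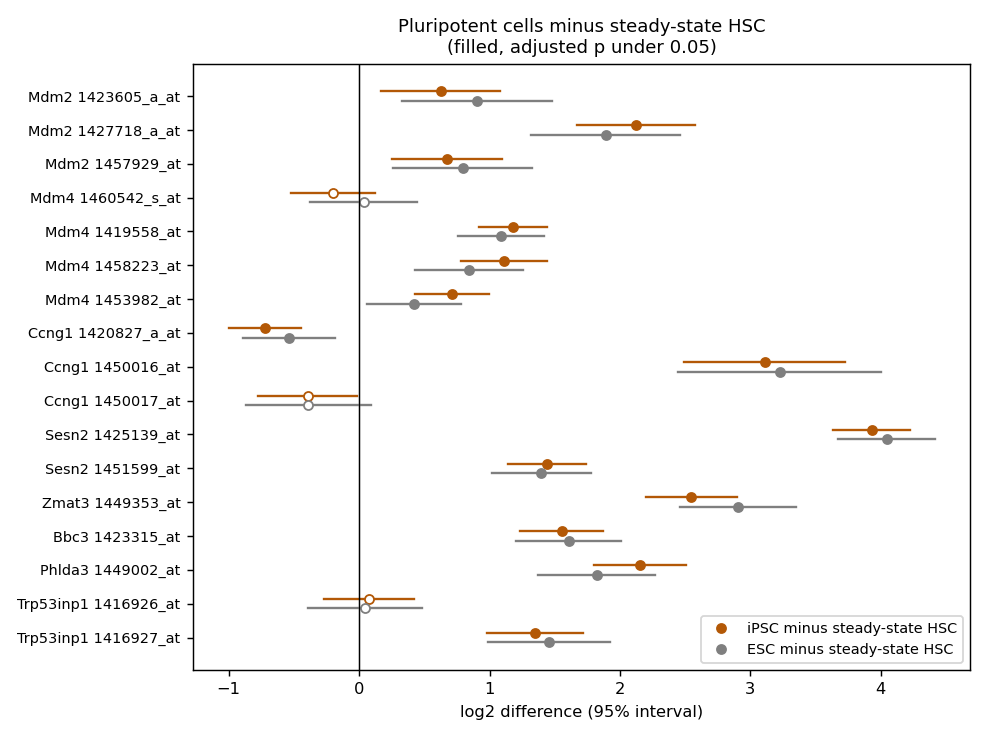
Difference in log2 intensity between iPSC (orange) or ESC (grey) and steady-state HSC for the 17 probe sets, with 95% intervals from limma. Filled points passed an adjusted p of 0.05. Sesn2 1425139_at lies furthest right, at 3.93 and 4.04, and Ccng1 lies on both sides of 0.

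Other genes of the pathway, from lists chosen with earlier results known, moved both ways. Of 43 tested among 48 listed other p53 targets, 17 rose and 17 fell in iPSC (median 0.05, against 0.21 over all lead probe sets), and 17 rose and 12 fell in ESC. Over the lead probe sets of all named genes, 41.2% were called higher and 31.9% lower in iPSC, and 32.4% higher and 28.5% lower in ESC. The genes that fell in iPSC included Casp1, an inflammatory caspase, at -4.87 ± 0.16, the sestrin Sesn1 at -3.64 ± 0.12 and Rrm2b, a p53-induced subunit of ribonucleotide reductase, at -2.82 ± 0.15, while Pmaip1, the death gene NOXA, was 3.45 ± 0.19 higher. Cdkn1a, the cell cycle inhibitor p21, was higher at both probe sets, by 1.88 ± 0.27 (1424638_at, the lead) and 2.39 ± 0.20 (1421679_a_at) in iPSC and by 1.85 ± 0.34 and 2.25 ± 0.25 in ESC. Among p53 regulators and partners, 12 rose and 9 fell of 26 in iPSC, with the p53 kinase Hipk2 at -3.73 ± 0.17 and the co-repressor Trim28 at 2.17 ± 0.12. The BCL2 family had 6 higher and 3 lower of 11, Bak1 at 1.25 ± 0.14 and Bok at 1.63 ± 0.22 rising and the survival gene Bcl2l2 at -1.92 ± 0.27 falling. Cell cycle genes were higher in 22 of 26 in iPSC, with 1 lower. Fibroblast and feeder markers, the other cells in those cultures, summed to between 739 and 1441 intensity units in iPSC and ESC, against 430 to 516 in steady-state HSC. The 3′ minus 5′ log2 difference of the Tfrc control probe sets was 2.49 to 2.79 in iPSC and ESC, against 1.22 to 1.88 in steady-state HSC, with no overlap, while those of Actb (1.97 to 2.69, against 1.98 to 2.25) and Gapdh (2.64 to 3.41, against 2.88 to 3.32) overlapped. The part of the feeder markers and of the control ratio in these differences was not tested.

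With age, no pathway probe set passed the test in HSC or iPSC. In aged against young steady-state HSC, 0 of 17 were called by limma, where 0.601% of all probe sets were. The 17 differences ran from -0.49 to 0.39, with a median of -0.01 against -0.02 over all probe sets. Of all 33778 probe sets 1675 had an unadjusted limma p under 0.05, and of the 17 only 1 did. That one was Mdm4 1419558_at, which read 5.09, 5.18 and 5.24 log2 in aged and 5.52, 5.71 and 5.74 in young HSC. All aged arrays lay below all young ones, as for 8.17% of all probe sets, and the difference was -0.49 ± 0.17 with a limma adjusted p of 0.602. Array weights, a setting in which 740 probe sets were called against 203, moved this adjusted p to 0.0457. The other Mdm4 probe sets differed by -0.06, -0.04 and 0.05.

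At the lead probe sets the 95% intervals bounded the age difference in steady-state HSC. They ran from -0.65 to 0.72 for Mdm2, from -0.24 to 0.56 for Ccng1, from -0.66 to 0.23 for Sesn2, from -0.31 to 0.75 for Zmat3, from -0.43 to 0.36 for Bbc3, from -0.59 to 0.41 for Phlda3 and from -0.27 to 0.73 for Trp53inp1. The widest over the 17, from -1.08 to 0.80, was that of Ccng1 1450016_at.

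In transplanted HSC, 0 of 17 were called between recipients of aged and of young marrow, where 0.779% of all probe sets were. The differences ran from -0.74 to 0.69. Mdm4 1453982_at read 4.15 and 4.36 log2 in recipients of aged marrow and 3.54 and 3.59 in recipients of young marrow, below the 25th percentile in these groups, a difference of 0.69 ± 0.21 with a limma adjusted p of 0.175. Ccng1 1450017_at read 5.77 and 6.38 in recipients of aged marrow and 6.99 and 6.65 in recipients of young marrow, a difference of -0.74 ± 0.31 (limma adjusted p = 0.321). No other probe set of the 17 had an unadjusted limma p under 0.05. Of all 33778 probe sets, 4708 did. The age differences of the transplanted and steady-state settings were not called apart for any of the 17 (lowest limma adjusted p 0.424). An unadjusted limma p under 0.05 was found for 3 of the 17 and for 3058 of all 33778 probe sets. In that comparison 0.0533% of all probe sets were called.

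In iPSC, 0 of the 16 tested probe sets were called between aged and young origin, where 0.0118% of all probe sets were. An unadjusted limma p under 0.05 was found for 0 of the 16 and for 1516 of all 33778 probe sets. Differences ran from -0.35 (Phlda3) to 0.14 (Sesn2 1451599_at), and 13 of 16 lay below 0. Their median was -0.13, against -0.03 over all probe sets. At the lead probe set, aged-origin arrays lay below young-origin arrays for Mdm2, Ccng1, Sesn2, Phlda3 and Trp53inp1. They also did so at Mdm4 1419558_at and Ccng1 1450017_at. Over all probe sets the share with such a split was 19.2%. The widest interval was that of Bbc3, from -0.62 to 0.36. The age difference in iPSC was not called apart from that in steady-state HSC for any of the 17 (lowest limma adjusted p 1.00), where 0.243% of all probe sets were called.

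Between iPSC and ESC, 0 of 16 were called, where 0.0947% of all probe sets were. Zmat3 read 9.77 and 9.59 log2 in aged-origin and 9.79 and 9.59 in young-origin iPSC, against 9.97 and 10.12 in ESC. Every iPSC array lay below both ESC arrays, as for 14% of all probe sets, with a difference of -0.36 ± 0.13 and a limma adjusted p of 0.309. The other 15 differences lay between -0.28 and 0.33, and the widest interval was that of Bbc3, from -0.48 to 0.37.

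**Figure D3:**
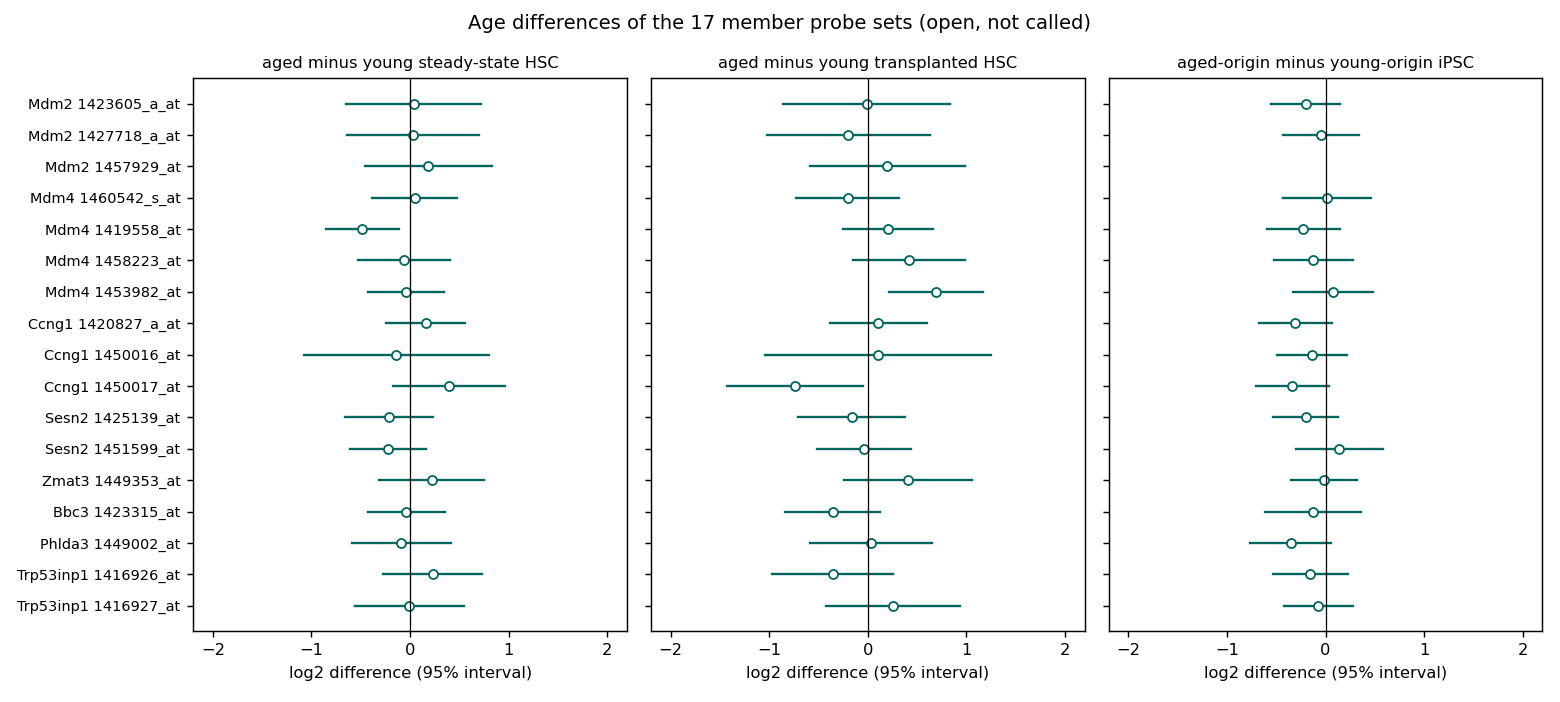
Aged minus young difference in log2 intensity for the 17 probe sets, in the 3 settings (steady-state HSC left, transplanted HSC middle, iPSC by age of origin right), with 95% intervals. Open points did not pass the test, and Mdm2 1457929_at has no iPSC value because it fell below the filter. Every point lies between -0.74 and 0.69.

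Other pathway genes showed few age calls. Of 42 other p53 targets tested in steady-state HSC, 1 was called by limma, where 0.88% of all lead probe sets were. It was Perp, a membrane protein linked to p53-driven death and to cell adhesion, at 1.80 ± 0.29 (3.49-fold, limma adjusted p = 0.0286). Ephx1, an epoxide hydrolase, was at 0.95 ± 0.25 (limma adjusted p = 0.252) and Plk2, a polo-like kinase, at 1.21 ± 0.42 (limma adjusted p = 0.637), both not called. Cdkn1a read 7.97, 6.84 and 6.64 log2 in aged and 7.23, 6.44 and 6.87 in young HSC at its lead probe set, with a difference of 0.30 ± 0.40 (95% interval -0.60 to 1.21). Of p53 regulators, 0 of 26 were called in steady-state HSC. Averaged over both HSC settings 1 was called, Ndn, the growth suppressor necdin, at 0.80 ± 0.15 (limma adjusted p = 0.0497), where 0.989% of all lead probe sets were called. None of the 17 member probe sets was called in that average, where 0.862% of all probe sets were (lowest limma adjusted p 0.381). None of 26 cell cycle genes was called in steady-state HSC, although 24 of them lay below 0 (median -0.46, against -0.02 over all lead probe sets).

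Transplanted HSC differed from steady-state HSC at 14 of the 17 probe sets, 5 higher and 9 lower. Of these, Mdm2 1457929_at (higher) and Mdm4 1453982_at (lower) lay below the 25th percentile in 1 of the settings. Mdm2 1457929_at passed the filter through the transplanted arrays, where it was high, so its call is listed but given no weight. Among all probe sets 66.6% were called, 30.6% higher and 36% lower, and at the lead probe sets of named genes 19.5% were higher and 47.7% lower. By lead probe set, 6 of the 8 genes were lower and 0 higher. The median difference was -0.44 over the 17, against -0.09 over all probe sets and -0.40 over lead probe sets. Centring each array on its median shifted the median of all probe sets to -0.29. Setting, sex of the mice and preparation of the arrays cannot be told apart here.

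Ccng1 had the widest fall by lead probe set. Its lead read 8.90 and 9.17 log2 in recipients of aged marrow and 8.99 and 8.87 in recipients of young marrow, against 10.97 to 11.54 in the 6 steady-state arrays, a difference of -2.23 ± 0.14 (4.69-fold lower, limma adjusted p = 6.42e-07). Trp53inp1 read 8.87 and 9.05 in recipients of aged marrow and 9.68 and 8.95 in recipients of young marrow, against 10.89 to 11.49 in steady-state HSC, a difference of -1.94 ± 0.18 (3.85-fold lower, limma adjusted p = 6.98e-06). Zmat3 read 5.78 and 5.87 in recipients of aged marrow and 4.96 and 5.88 in recipients of young marrow, against 6.83 to 7.32 in steady-state HSC, a difference of -1.52 ± 0.19 (2.87-fold lower, limma adjusted p = 5.58e-05). At these 3 lead probe sets no transplanted array reached a steady-state array, as for 28.2% of all probe sets. Ccng1 and Trp53inp1 each also had a probe set at which every transplanted array lay above every steady-state array, as for 24.2% of all probe sets.

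The falls were smaller for Bbc3, at -0.53 ± 0.14 (limma adjusted p = 0.00690), and Phlda3, at -0.61 ± 0.18 (limma adjusted p = 0.0116), and their arrays overlapped with steady-state ones. Sesn2 at its lead was at -0.44 ± 0.16 (limma adjusted p = 0.0311), and leaving out any of 7 arrays, 4 of them steady-state and 3 transplanted, moved the adjusted p to between 0.0587 and 0.0813. Its other probe set was not called, at -0.09 ± 0.14. For Mdm2 the lead probe set was at -0.44 ± 0.24 (95% interval -0.98 to 0.11, limma adjusted p = 0.139), and without replicate 2 of the recipients of aged marrow it was -0.74 with a limma adjusted p of 0.0101. That array read 8.62, where its replicate read 7.42. With each array centred on its median the Mdm2 lead was at -0.64 (limma adjusted p = 0.0372).

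Probe sets of 1 gene often disagreed in this comparison. Mdm4 1419558_at read 9.53 and 9.38 log2 in recipients of aged marrow and 9.42 and 9.08 in recipients of young marrow, against 5.09 to 5.74 in steady-state HSC, 3.94 ± 0.13 higher. Mdm4 1453982_at read 3.54 to 4.36 in transplanted arrays, where both means lay below the 25th percentile, against 4.72 to 5.15 in steady-state ones. The other Mdm4 probe sets, 1458223_at and the lead, were at -0.95 ± 0.16 and 0.12 ± 0.15, the lead not called. Under quantile normalisation the Mdm4 lead was at 0.37 (limma adjusted p = 0.0461). Mdm2 1457929_at read 7.17 to 8.28 in transplanted arrays, against 3.19 to 3.82 in steady-state ones. Both steady-state means lay below the 25th percentile, so this probe set passed the filter through the transplanted arrays and no size is given for its difference. Mdm2 1427718_a_at was 1.67 ± 0.24 higher, while the lead was not called. Ccng1 1450016_at was 2.35 ± 0.33 higher beside its lead at -2.23, and 1450017_at was at -1.89 ± 0.20. Trp53inp1 1416927_at was 1.95 ± 0.20 higher beside its lead at -1.94. In all, 3 of the 5 genes with several probe sets (Mdm4, Ccng1 and Trp53inp1) had probe sets called both ways, as did 2681 of 6999 such genes on the array, 38.3%.

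**Figure D4:**
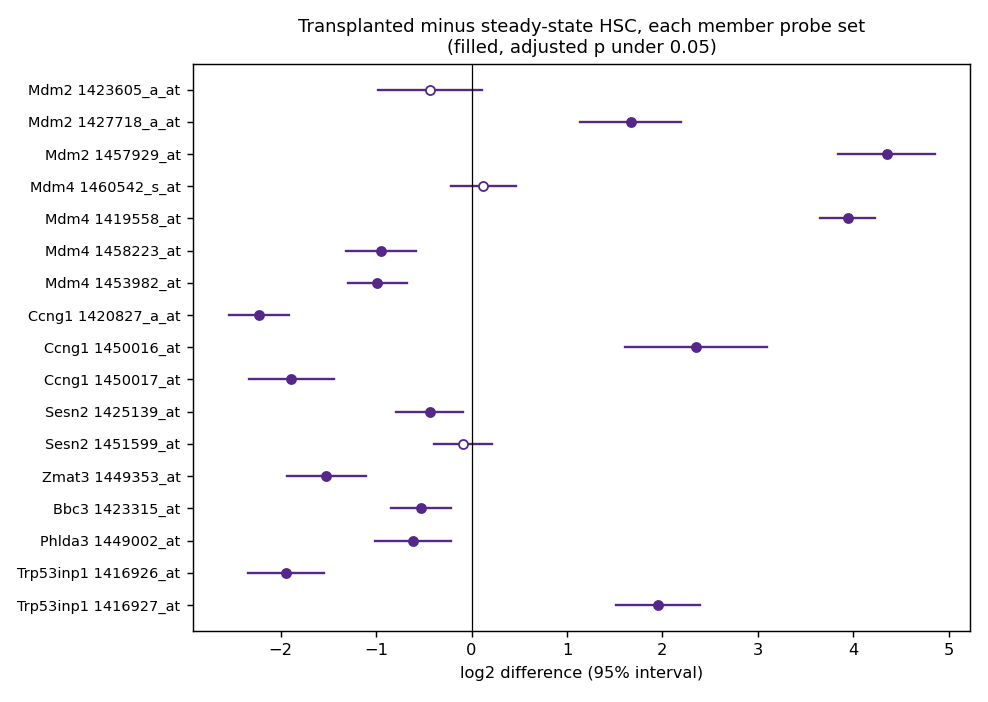
Transplanted minus steady-state difference in log2 intensity for the 17 probe sets, with 95% intervals; filled points passed an adjusted p of 0.05. Probe sets of Mdm4, Ccng1 and Trp53inp1 lie on both sides of 0.

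The control probe sets on the array read both ends of the Actb, Gapdh and Tfrc transcripts, and they moved with the transplanted comparison. The 3′ minus 5′ log2 difference for Actb was -0.26 to -0.05 in transplanted HSC, against 1.98 to 2.25 in steady-state HSC. For Gapdh it was 1.79 to 2.37, against 2.88 to 3.32, and for Tfrc -1.99 to 0.53, against 1.22 to 1.88. No transplanted array overlapped with a steady-state array in any of the 3. Their part in the differences between transplanted and steady-state HSC was not tested.

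**Figure D5:**
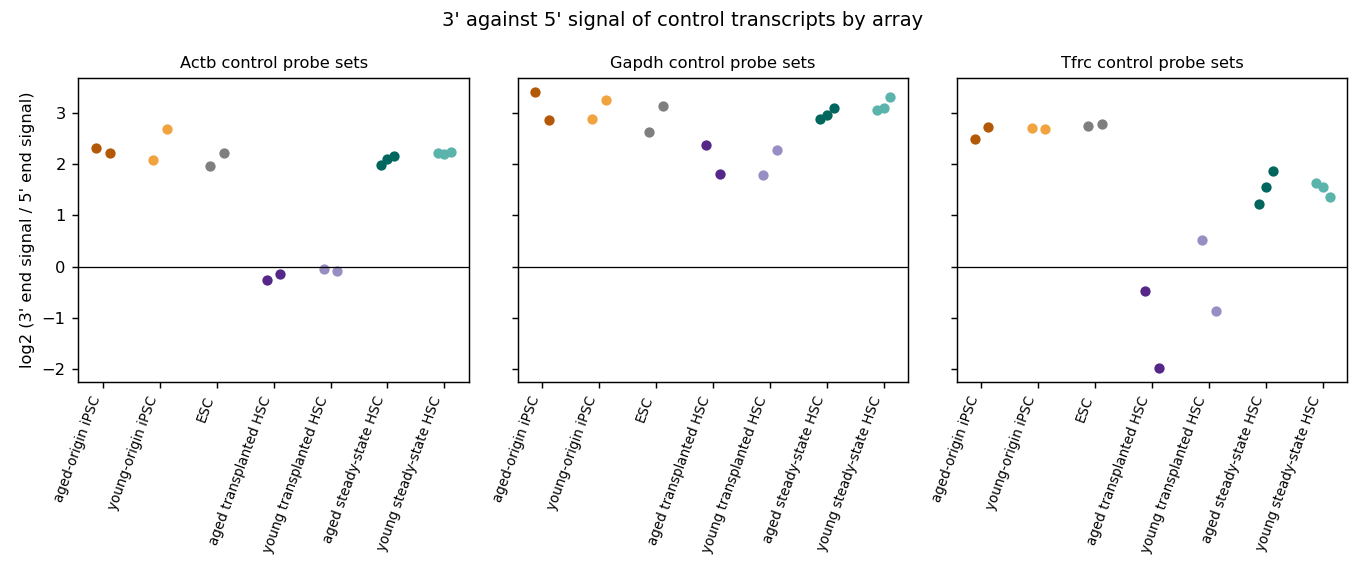
Log2 ratio of 3′ to 5′ signal of the control probe sets for Actb, Gapdh and Tfrc on each array, by group. The transplanted arrays lie lowest in each panel, between -0.26 and -0.05 for Actb, against 1.98 to 2.25 in steady-state HSC.

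Among pathway genes on the lists, 7 of 42 other p53 targets were higher and 26 lower in transplanted HSC (median -0.996, against -0.40 over lead probe sets). Beside this and the counts below, 19.5% of the lead probe sets of all named genes were higher and 47.7% lower. Xpc, a DNA damage sensor, was at -1.98 ± 0.12 and Ei24, a death-associated membrane protein, at -1.75 ± 0.14. Cdkn1a was at -2.28 ± 0.32 by its lead probe set and 0.90 ± 0.23 by the other, so its direction depended on the probe set. Of 26 regulators, 3 were higher and 16 lower, with the deacetylase Sirt1 at -3.28 ± 0.14. BCL2 family genes split, 3 higher and 4 lower of 11, with Bcl2 at 4.14 ± 0.29 and Bcl2l1 at -0.80 ± 0.16. All 11 HSC identity genes were lower in transplanted HSC.

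Read by setting, the lead probe sets ordered in 4 ways. Sesn2, Zmat3, Bbc3 and Phlda3 were highest in the pluripotent cells, lower in steady-state HSC and lowest in transplanted HSC. Between the HSC settings the arrays overlapped for Sesn2, Bbc3 and Phlda3, and the Sesn2 call did not hold under every alternative. Ccng1 was highest in steady-state HSC, lower in the pluripotent cells and lowest in transplanted HSC. Trp53inp1 was not called between pluripotent cells and steady-state HSC and was lowest in transplanted HSC. The Mdm2 lead was highest in the pluripotent cells, with no call between the HSC settings. The Mdm4 lead was not called in any contrast, apart from the scaling exceptions given above. The other probe sets of Mdm2 and Mdm4 were called between the HSC settings, as given above. Transplanted HSC were not compared with pluripotent cells in a contrast.

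The 5 genes with group means most like those of the Mdm2 lead probe set, by root mean square log2 difference of centred means over the 7 groups, were Cldn34c4 (0.0603), Ccdc85a (0.0768), Vgf (0.0816), Pdf (0.0834) and Ndufs3 (0.0842). Mdm2 was taken as the lead for this search after the data were seen.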

How the data were processed

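RNA of 16 arrays was compared in 7 groups taken from the sample titles. The values are the intensity values the authors deposited as 1 table of 45101 probe sets, on a linear scale. The method of summary and normalisation was not given in the sources used here. Per the labels, biotinylated cRNA was hybridised to Affymetrix arrays.

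Each intensity was put on the log2 scale with no pseudocount. Control probe sets (64) were left out. A probe table gave 34945 of the other probe sets exactly 1 gene symbol, 932 several, and 9160 were not listed. Comparisons used limma 3.58.1 (lmFit, eBayes) in R 4.3.3, on the 10 HSC arrays, the 6 iPSC and ESC arrays, or all 16, with 6, 3 and 9 residual degrees of freedom. Probe sets below the 25th percentile of mean log2 in a fit were left out, leaving 33778, and calls were made at an adjusted p (Benjamini-Hochberg over these) under 0.05. Of the 17 member probe sets, all passed this filter in the HSC and all-array fits and 16 in the iPSC and ESC fit. Errors after ± are standard errors of the fit. The table holds no detection calls, and the number of arrays limits the precision. Apart from the ESC, arrays of 1 group are labelled biological replicates. The fits were tested on simulated data.

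The members, gene lists and tests were chosen with earlier results of these data known. Text names all member probe sets, Cdkn1a, and genes from up to 4 with the smallest p per pathway list and contrast. The search for like genes was to use Trp53 and used Mdm2, since Trp53 was not analysed here. Alternatives were other scalings, filters, pseudocounts, probe set summaries, variance priors, arrays in the fit, array weights, a replicate block and each array left out.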

Additional observations from a re-analysis of the deposited data

How the results depend on the processing

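No count of called genes among the 8, by lead probe set, moved by over 1.5 times under any alternative. Leaving out each array gave 0 called in every age comparison and in iPSC against ESC, and 5 to 6 in transplanted, iPSC and ESC against steady-state HSC. Averaging the probe sets of a gene, the difference for Trp53inp1 in transplanted HSC became 0.0037 against -1.94 by lead, and that for Ccng1 became 0.66 in iPSC and 0.76 in ESC, against -0.72 and -0.54. These averages mix probe sets that moved apart. Among single genes and alternatives, 1863 values kept their direction and side of the threshold, 15 lost a call, 7 gained one and 3 reversed. Calls over all probe sets varied more: 203 for age at steady state, with 62 to 740 under alternatives that keep all arrays, 263 for age after transplantation, with 0 to 1436, 18 for the difference between those age effects, with 0 to 292, 291 for their average, with 74 to 1022, 32 for iPSC against ESC, with 15 to 104, and 82 for the change of age effect in iPSC relative to steady-state HSC, with 21 to 344. Leaving out 1 array gave 85 to 280 for age at steady state, lowest without aged steady-state replicate 1, 52 to 2620 after transplantation, 0 to 1038 for the difference and 114 to 1776 for the average, each highest without young transplanted replicate 2, 13 to 31 for iPSC against ESC, lowest without either aged-origin iPSC array, and 27 to 143 for the iPSC change, lowest without aged-origin iPSC replicate 1. Transplanted against steady-state HSC gave 22486, with 9144 to 26795, iPSC 22760, with 10360 to 26528, and ESC 18534, with 8888 to 23637; the cause was not tested beyond fewer rows in the fits by gene.

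Same-numbered arrays did not deviate together (correlations of -0.129 among transplanted arrays, -0.089 among iPSC and -0.332 to 0.172 among steady-state arrays), so the numbers were not taken as pairs. With the replicate block, 0 member genes were called in each age comparison, 6 in iPSC and 5 in transplanted against steady-state HSC, where the Sesn2 lead had a limma adjusted p of 0.0800; over all probe sets 62 were called for age at steady state and 2 after transplantation. Crossed numbers of the transplanted arrays, chosen after seeing the data, gave 119 and 8. The ESC carry no replicate numbers, so no block was fitted for them.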
